A study of Homo sapiens with 62 samples.

Results

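Cancer-testis and germline genes are transcribed in the germ cells of the testis and are silent in nearly all other adult tissues, but many tumours switch some of them on. A list of 42 such genes was followed here by name through messenger RNA counts of 5 human cell lines. All 42 were found among the 58735 genes counted in A2058, HCT116, AGS and MCF10A, and among the 48162 genes counted in A2780. The list holds 16 genes of the MAGE family, 14 other X-linked cancer-testis genes, 5 autosomal ones, 5 genes of germ-cell RNA handling and 2 genes of the synaptonemal complex of meiotic chromosomes, and 30 of the 42 lie on the X chromosome. The list was chosen by gene name, not by the measured values, although earlier results of these data were known when it was drawn up.

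In somatic cells most of these genes are held silent by methylation of CG pairs in their promoters, and they can be re-expressed when that methylation is lost. MAGE proteins bind E3 ubiquitin ligases and steer which proteins these mark. GAGE, SSX, PAGE and CT45 genes form tandem families with near-identical copies on the X chromosome. LIN28B blocks maturation of the let-7 microRNAs, and GPAT2 is a mitochondrial acyltransferase of the glycerolipid pathway that is most abundant in testis.

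The study sequenced 62 libraries in 16 groups. A2058 is a melanoma line, HCT116 a colorectal cancer line, AGS a gastric cancer line, A2780 an ovarian cancer line and MCF10A a non-tumour breast epithelial line. Clones lacking 1 extra copy of a chromosome arm were derived from single cells with ReDACT, a genome-engineering procedure that the labels give in versions NS, TR and CO. In A2058 there were 4 WT libraries, 4 libraries of 2 clones with 1q loss, 6 libraries of 3 clones with 7p loss and 4 libraries of 2 clones with 8q loss, with version CO for all of the loss clones. HCT116 had 2 WT libraries and 4 libraries of 2 clones with 8q loss, by version CO. AGS had 1 WT library, 2 TK+ clones, which carry an integrated TK cassette and keep the extra arm, and 5 clones with 1q loss of 1 library each, of which clones 1, 4, 6 and 7 came from version NS and clone 11 from version CO. A2780 had 2 WT, 2 TK+ and 6 libraries of 3 clones with 1q loss, by version NS. MCF10A had 2 WT libraries and 8 libraries of 4 clones with 1q loss, and the same numbers again in cells that express hRASV12. In both MCF10A sets clones 1 to 3 came from version TR and clone 4 from version CO. Cells were plated 24 hours before RNA extraction.

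Total counts were 19595543 to 28622197 per library in A2058, 21373588 to 30984036 in HCT116, 15042068 to 19414614 in AGS, 19358338 to 23965475 in A2780 and 15500424 to 29312644 in MCF10A. No WT library carries a clone number, and clone numbers among the controls are given for the AGS TK+ cells alone, so outside AGS the effect of growing cells from 1 cell and the effect of losing the arm cannot be told apart. Of 7 markers of the labelled cell type fixed per line, all 7 reached 1 CPM (a count scaled to its library total) in A2058 (melanocyte markers) and all 7 in MCF10A (basal breast markers). In HCT116 4 of 7 intestinal markers did, with CDX1, VIL1 and CDH17 under 1 CPM. In AGS 4 of 7 gastric markers did, with TFF2, CLDN18 and GKN1 under 1 CPM, and in A2780 2 of 7 ovarian markers did, with PAX8, WT1, KRT7, ESR1 and MSLN under 1 CPM. In 4 lines the markers of another tissue reached it in equal or larger number, with 5 of 7 intestinal markers in AGS, 4 of 7 basal breast markers in A2780 and in HCT116, and 7 of 7 ovarian markers in MCF10A. Markers of Sertoli and Leydig cells, the somatic cells of the testis, reached 1 CPM for 4 of 7 genes in A2058, for 2 in HCT116 and for 1 in each other line, with a summed level between 1.34 and 33.2 CPM. In bulk RNA, fewer cells with a transcript and less transcript per cell cannot be told apart.

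The upstream sequences of 7 members are printed because their counts turn on later in the results. Each is the 150 bases before the RefSeq transcription start in GRCh38.p14, read 5′ to 3′ on the gene's strand, with every CG pair in capitals. MAGEC1, PASD1, PAGE5 and MAGEB2 were each high in some A2058 clones and at or near 0, or far lower, in others. MAGEA3 and MAGEA6 share 1 sequence over these bases and had similar counts in A2058 but far apart counts in HCT116. GPAT2 was on in WT MCF10A and at or near 0 in the clones.
MAGEC1, chrX:141903744-141903893, plus strand: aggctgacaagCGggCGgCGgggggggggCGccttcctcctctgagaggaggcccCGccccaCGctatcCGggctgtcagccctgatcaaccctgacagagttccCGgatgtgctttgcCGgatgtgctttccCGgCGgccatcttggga
PASD1, chrX:151563525-151563674, plus strand: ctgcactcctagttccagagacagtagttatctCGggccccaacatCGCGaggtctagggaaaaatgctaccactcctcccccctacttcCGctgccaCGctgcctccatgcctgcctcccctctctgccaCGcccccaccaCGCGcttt
PAGE5, chrX:55220196-55220345, plus strand: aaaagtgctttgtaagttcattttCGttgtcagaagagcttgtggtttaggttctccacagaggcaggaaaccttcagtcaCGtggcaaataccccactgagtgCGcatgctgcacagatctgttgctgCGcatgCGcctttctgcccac
MAGEB2, chrX:30215413-30215562, plus strand: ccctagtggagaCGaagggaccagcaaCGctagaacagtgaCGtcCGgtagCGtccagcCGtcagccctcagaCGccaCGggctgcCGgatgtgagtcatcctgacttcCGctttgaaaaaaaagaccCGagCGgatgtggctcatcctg
MAGEA3, chrX:152698644-152698793, plus strand: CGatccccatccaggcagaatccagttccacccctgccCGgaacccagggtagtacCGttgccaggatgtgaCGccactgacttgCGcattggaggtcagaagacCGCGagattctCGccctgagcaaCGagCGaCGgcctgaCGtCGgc
MAGEA6, chrX:152769690-152769839, minus strand: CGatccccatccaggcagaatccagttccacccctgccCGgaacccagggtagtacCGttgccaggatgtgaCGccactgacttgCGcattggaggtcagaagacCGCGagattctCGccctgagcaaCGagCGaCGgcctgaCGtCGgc
GPAT2, chr2:96034917-96035066, minus strand: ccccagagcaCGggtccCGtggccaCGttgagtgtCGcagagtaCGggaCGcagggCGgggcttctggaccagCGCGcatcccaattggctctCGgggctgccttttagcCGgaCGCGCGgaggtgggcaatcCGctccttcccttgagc

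These windows hold 11 CG pairs for MAGEC1, 8 for PASD1, 5 for PAGE5, 12 for MAGEB2, 13 for MAGEA3 and for MAGEA6, and 15 for GPAT2 at the start richest in CG of its 3 RefSeq starts. Over the 250 bases before the start, 37 of the 42 members had at least 1 RefSeq window, 56 windows in all. Their median was 10.5 CG pairs, with a range of 0 to 51, beside a median of 11 over all 35116 windows of RefSeq genes. The letters CACGTG, which read the same on both strands, were in 9 of the 56 member windows (16.1%) and in 6.34% of all windows. BRDT and TDRD1 each hold 2 overlapping windows among the 9, so these stand for 7 of 37 members (18.9%), beside 7.73% of 27305 genes with the letters in at least 1 window. Of these 7 members 4 were on in no library. Methylation was not analysed here, so these letters describe the promoters and not their state.

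A member was called on in a library at 10 or more counts and off at 3 or fewer. By that rule 28 of the 42 members were on in at least 1 library and 14 in none. Of the MAGE genes 14 of 16 were on somewhere, with MAGEA8 and MAGEB1 on in no library. Of the other X-linked genes 9 of 14 were on, with CTAG1B, CTAG2, FMR1NB, PAGE2 and SSX4 on in none. The autosomal genes BRDT, a testis bromodomain protein, and TEX101, a germ-cell surface protein, were on in none, and the other three were on in at least 1 library. DAZL, DDX4, MAEL and TDRD1, which handle RNA in germ cells, and SYCP1, a protein of the synaptonemal complex, were on in none.

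**Figure D1:**
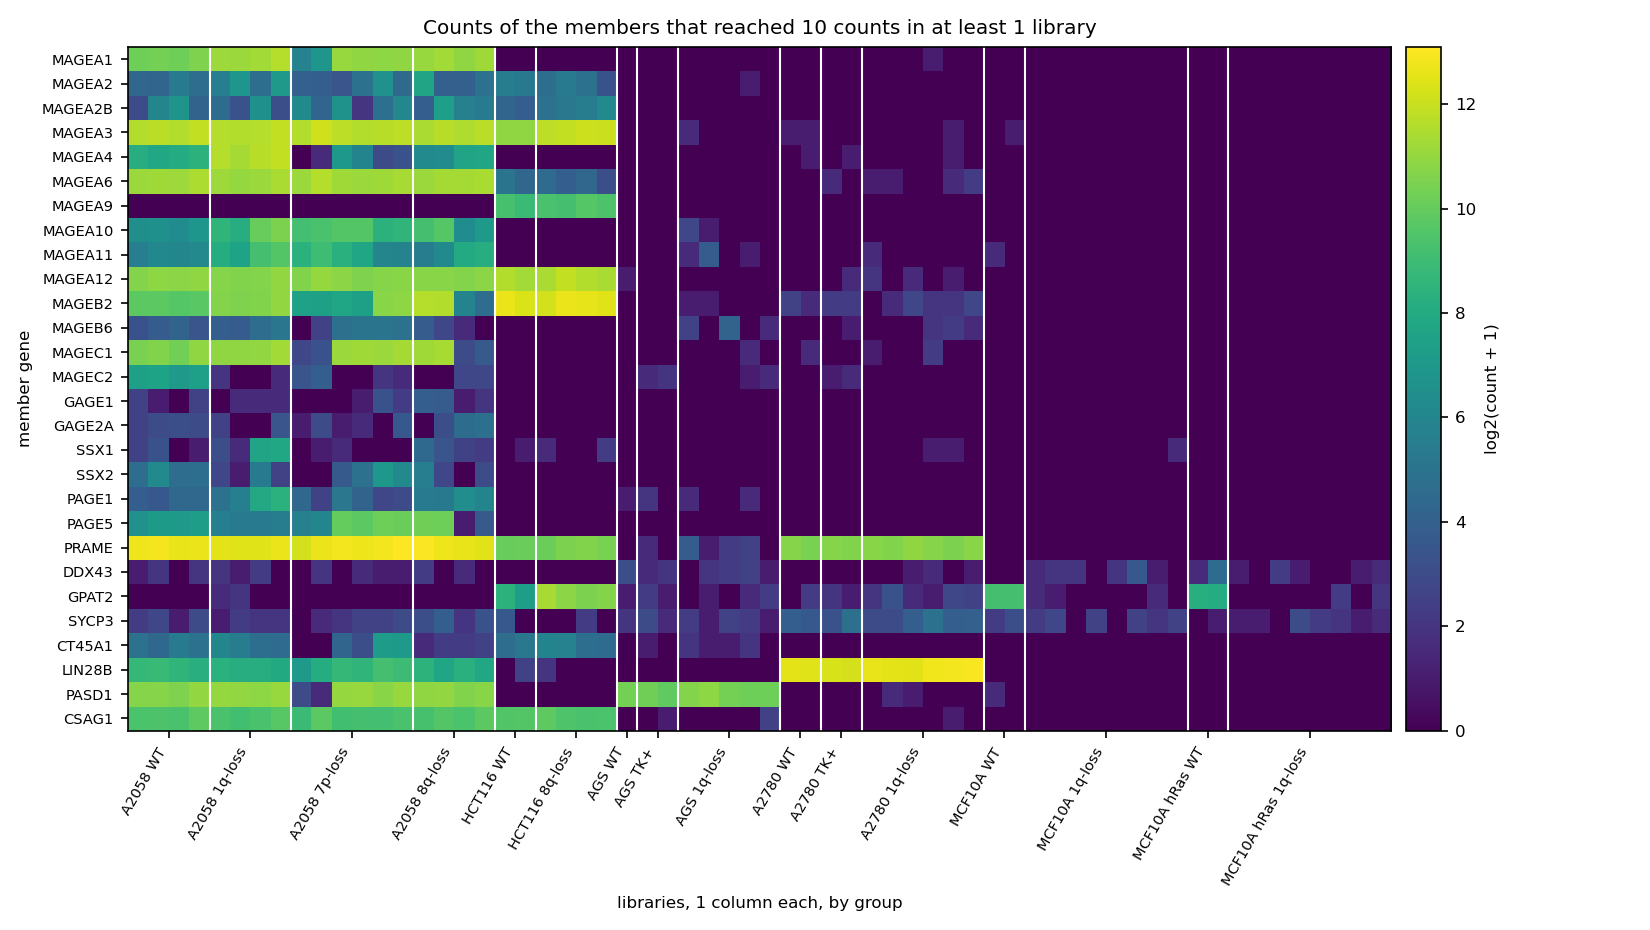
Counts of the 28 members on in at least 1 library, as log2(count + 1), with 1 row per gene and 1 column per library, grouped by line and genotype. A2058 and HCT116 hold most of the bright cells, PASD1 is the bright row of AGS, PRAME and LIN28B are those of A2780, and GPAT2 is that of MCF10A WT and MCF10A hRas WT.

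The lines carried different sets. In every WT library, 19 members were on in A2058, 11 in HCT116, 3 in A2780, 1 in AGS and 1 in MCF10A. Over these, 23 members were on in at least 1 line, 12 of them in 1 line, 10 in 2 lines and PRAME, an inhibitor of retinoic acid receptor signalling, in A2058, HCT116 and A2780. A2058 and HCT116 shared 8 members, which are 42.1% of the A2058 set and 72.7% of the HCT116 set: MAGEA2, MAGEA3, MAGEA6, MAGEA12, MAGEB2, PRAME, CT45A1 and CSAG1. MAGEA2 shares 89.4% of the 100-base windows along its exons with MAGEA2B, so its own count is uncertain. PASD1 was on in A2058 and AGS, LIN28B in A2058 and A2780, GPAT2 in HCT116 and MCF10A, and SYCP3, a protein of the meiotic chromosome axis, in A2780.

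Levels per length, in CPM per kilobase, put MAGEA3 first in A2058 WT at 84.1 ± 4.61 (SD, n = 4). PRAME, at 83.6 ± 8.79, did not differ from it beyond the spread, and MAGEA6 followed at 59.5 ± 3.27, MAGEA12 at 42.3 ± 0.743 and MAGEA1 at 34.5 ± 2.23. In HCT116 WT the highest level was that of MAGEB2, at 142 ± 4.11 (SD, n = 2), ahead of MAGEA12 at 55.4 ± 1.01, MAGEA3 at 42.3 ± 4.94, CSAG1 at 27.2 ± 4.47 and MAGEA9 at 11.7 ± 0.457. MAGEA9 shares 89.7% of its 100-base windows with MAGEA9B, and the summed pair had 650 to 837 counts in HCT116 WT. In A2780 WT it was LIN28B, at 50.6 ± 0.298, ahead of PRAME at 26.2 ± 1.74. In the 1 AGS WT library PASD1, a PAS-domain protein, stood at 15.4, and the next member, DDX43, at 0.150. In MCF10A WT GPAT2 stood at 4.20 ± 0.743.

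MAGEA3 and MAGEA6 are near-identical neighbours on the X chromosome, at 152698752 to 152702347 on the plus strand and 152766136 to 152769747 on the minus strand of GRCh38, 71.0 kb from the start of one to the end of the other. In HCT116 WT, MAGEA3 had 1958 and 1935 counts and MAGEA6 32 and 19. In the 8q-loss libraries MAGEA3 had 3505, 3780, 4393 and 4190 counts and MAGEA6 23, 14, 19 and 8. In A2058 MAGEA3 lay between 2744 and 4594 counts in all 18 libraries and MAGEA6 between 2052 and 3221. The 250 bases before the 2 starts differ at 0 positions, as the lines printed above show for 150 of them. Of the 100-base windows along MAGEA3 34.9% also occur elsewhere, most in MAGEA6, and how such reads were counted is not given in the sources used here, so the split of counts between the pair is uncertain.

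A2058 clones with 1q loss were compared with A2058 WT to ask how the arm's extra copy bears on expression. Of 21 members that passed the filter on low counts, 8 were higher and 3 lower at an adjusted p under 0.05 (edgeR quasi-likelihood test, Benjamini-Hochberg over all genes tested). Over all genes 49.6% were called in this comparison, so the members' share lies close to the background. Sizes differed more: the median absolute log2 change was 0.75 over the members and 0.34 over all genes tested, and the median signed change 0.23 against -0.00. The same medians were 0.81 over the members and 0.14 over all genes with 8q loss, 0.23 and 0.16 with 7p loss and 0.36 and 0.31 in HCT116. Over only 3 members tested they were 0.15 and 0.17 with 1q loss in A2780 and 0.32 and 0.15 in A2780 TK+ cells. In the same libraries the summed level of 7 melanocyte markers was 208 to 259 CPM in clone 1 and 51.2 to 65.0 CPM in clone 2, against 2598 to 4493 CPM in WT, with TYR at 0 in at least 1 library of clone 2. The part of this shift in the members' changes was not tested. The same sum was 1308 to 4666 CPM in the clones of 7p loss and 2183 to 3986 CPM in those of 8q loss. Single markers were low there too. MLANA was at 1.61 to 4.93 CPM in these clones against 13.96 to 23.9 CPM in WT. TYR was at 0.0984 to 4.97 CPM in 7p-loss clones 2 and 3 and at 2.08 to 6.67 CPM with 8q loss, against 97.1 to 159 CPM in WT and 557 to 1038 CPM in 7p-loss clone 1. Their part in the members' changes was not tested either.

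MAGEA4, whose protein partners the ligase RAD18, had 281, 226, 261 and 335 counts in A2058 WT. It had 3157, 2537, 3302 and 3796 counts in the 1q-loss libraries, all far above WT. Its level was 12.5 ± 2.08 CPM in WT and 142 ± 13.6 CPM with 1q loss (SD, n = 4 each), a log2 change of 3.50 (SE 0.128, adjusted p = 3.64e-08 by edgeR). MAGEA10 had 90, 93, 83 and 116 counts in WT and 384, 282, 1043 and 1479 with 1q loss, a log2 change of 2.98 (SE 0.432, adjusted p = 0.000231). MAGEA11, a coregulator of the androgen receptor, had 47, 68, 64 and 70 counts in WT and 274, 191, 610 and 763 with 1q loss (log2 2.82, SE 0.359, adjusted p = 9.59e-05). For all 3 genes every 1q-loss library lay above every WT library, and MAGEA10 and MAGEA11 were higher in clone 2 than in clone 1.

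Smaller rises were those of MAGEA1 and MAGEB2. MAGEA1 had 1170, 1328, 1193 and 1531 counts in WT and 2284, 2209, 2489 and 3238 with 1q loss (log2 0.94, SE 0.0715, adjusted p = 2.78e-06). MAGEB2 had 873, 883, 809 and 866 counts in WT and 1606, 1521, 1584 and 2035 with 1q loss (log2 0.94, SE 0.0731, adjusted p = 3.15e-06). PAGE1 had 14, 11, 20 and 20 counts in WT, 29 and 49 in clone 1 and 237 and 326 in clone 2 (log2 3.19, SE 0.680, adjusted p = 0.00279), so that most of its change came from clone 2. MAGEC2, whose protein binds the co-repressor TRIM28, went the other way.

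MAGEC2 had 174, 191, 128 and 168 counts in A2058 WT. It had 3, 0, 0 and 2 counts in the 1q-loss libraries, 10, 14, 0, 0, 3 and 2 in those with 7p loss, and 0, 0, 6 and 6 in those with 8q loss, so no loss library reached the WT range. Its log2 change was -6.94 with 1q loss (SE 0.451, adjusted p = 9.73e-07), -5.13 with 7p loss (SE 0.676, adjusted p = 0.00443) and -5.73 with 8q loss (SE 0.589, adjusted p = 0.00158). As a ratio of summed counts relative to scaled library totals, WT stood 134-fold (95% exact interval 57.3 to 415) above 1q loss, 34.7-fold (23.9 to 52.2) above 7p loss and 55.6-fold (31.6 to 108) above 8q loss. These intervals cover counting error only, and the 3 comparisons share the 4 WT libraries. MAGEC2 passed the filter on low counts only through WT, where it is high, so its p-values are a description. With 7p loss the call was lost when the libraries of each clone were summed (adjusted p = 0.0598), with WT replicates 1 and 2 as the only controls (0.0968) and with WT replicates 3 and 4 only (0.0859). With 8q loss it was lost with WT replicates 3 and 4 only (0.086).

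PAGE5 also fell with 1q loss, from 98, 140, 136 and 159 counts in WT to 49, 40, 42 and 44 (log2 -1.61, SE 0.173, adjusted p = 2.94e-05). PRAME fell by 0.25 on the log2 scale (SE 0.0797, adjusted p = 0.0254), a call that was lost in 7 of 19 alternative fits, with the adjusted p reaching 0.209. MAGEA3, MAGEA6 and MAGEA12 did not pass the test in this comparison.

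With 7p loss, 1 member was higher and 1 lower of 21 tested, beside 0.908% of all genes called. The higher, MAGEA10, was singled out from earlier results of these data. The lower, MAGEC2, passed the filter on low counts only through WT. Nothing is read from this share, and the p-values of MAGEA10 are a description. MAGEA10 had 579 and 640 counts in clone 1, 769 and 778 in clone 2 and 344 and 379 in clone 3, each above the WT range of 83 to 116 (log2 2.59, SE 0.268, adjusted p = 0.00092). Its level was 4.32 ± 0.474 CPM in WT (SD, n = 4) and 26.2 ± 8.85 CPM with 7p loss (SD, n = 6). The adjusted p was 0.0716 with WT replicates 1 and 2 as the only controls. Without clone 1 the count of called members was 6, beside 5.96% of all genes, so calls over all genes were also more frequent there. Without clone 3 it was 4, beside 0.598% of all genes.

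With 8q loss, 2 members were higher and 2 lower of 21 tested, beside 2.03% of all genes. Both lower members, MAGEC2 and CT45A1, passed the filter on low counts only through WT, where they are high. Their p-values are a description, and their number is not read against this share. MAGEA1 had 2193, 2480, 1964 and 2377 counts, above its WT range of 1170 to 1531 (log2 0.78, SE 0.0922, adjusted p = 0.00308). CT45A1 fell from 29, 20, 41 and 30 counts in WT to 2, 4, 4 and 5 (log2 -2.97, SE 0.395, adjusted p = 0.0053). With WT replicates 3 and 4 as the only controls both calls were lost (adjusted p of 0.136 for MAGEA1 and 0.0931 for CT45A1), and that of CT45A1 also with WT replicates 1 and 2 only (0.0692). PAGE1 had 39, 38, 86 and 58 counts against 11 to 20 in WT (log2 1.77, SE 0.367, adjusted p = 0.0403), a call lost in 11 of 19 alternative fits. MAGEA10 did not pass (log2 2.02, SE 0.595, adjusted p = 0.153), with 596 and 792 counts in clone 1 and 81 and 136 in clone 2. It passed without clone 2 (adjusted p = 8.57e-05), without replicate 1 of that clone (0.0365) and with no filter on low counts (0.0133).

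Leaving out either clone moved the count of called members by over 1.5 times, and the 2 clones of 8q loss were therefore set against WT 1 at a time. These single-clone fits, and the test between clones given after them, were added after the data had been seen, and genes named from them were chosen by their values. All of the single-clone fits share the 4 WT libraries. A member on in WT and near 0 in a clone, such as MAGEC1 in 8q-loss clone 2, passed the filter on low counts of that fit through WT. Its p-values there are a description. Clone 1 had 5 members higher and 3 lower of 23 tested, beside 4.96% of all genes, and clone 2 had 4 higher and 5 lower of 22, beside 3.53%. MAGEB2, MAGEC1 and PAGE5, 3 of 24 members tested in at least 1 of these clones, were called in both clones in opposite directions, as were 0.262% of all genes so tested.

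MAGEC1, a MAGE gene with a long repeat-rich protein, had 1383, 1561, 1281 and 1971 counts in WT, 2395 and 2662 in 8q-loss clone 1 and 7 and 12 in 8q-loss clone 2. WT stood 157-fold (95% exact interval 101 to 261) above clone 2 relative to scaled library totals, and the log2 change was 0.64 in clone 1 (adjusted p = 0.0307) and -7.28 in clone 2 (adjusted p = 3.6e-06 by edgeR). PAGE5 had 1226 and 1193 counts in clone 1, above its WT range of 98 to 159, and 1 and 12 counts in clone 2, below it. Its log2 change was 3.11 in clone 1 (adjusted p = 8.08e-06) and -4.28 in clone 2 (adjusted p = 0.00277). MAGEB2 had 3228 and 3062 counts in clone 1 and 58 and 25 in clone 2, on either side of the WT range of 809 to 883. Its log2 change was 1.79 in clone 1 (adjusted p = 6.14e-05) and -4.32 in clone 2 (adjusted p = 0.000151).

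**Figure D2:**
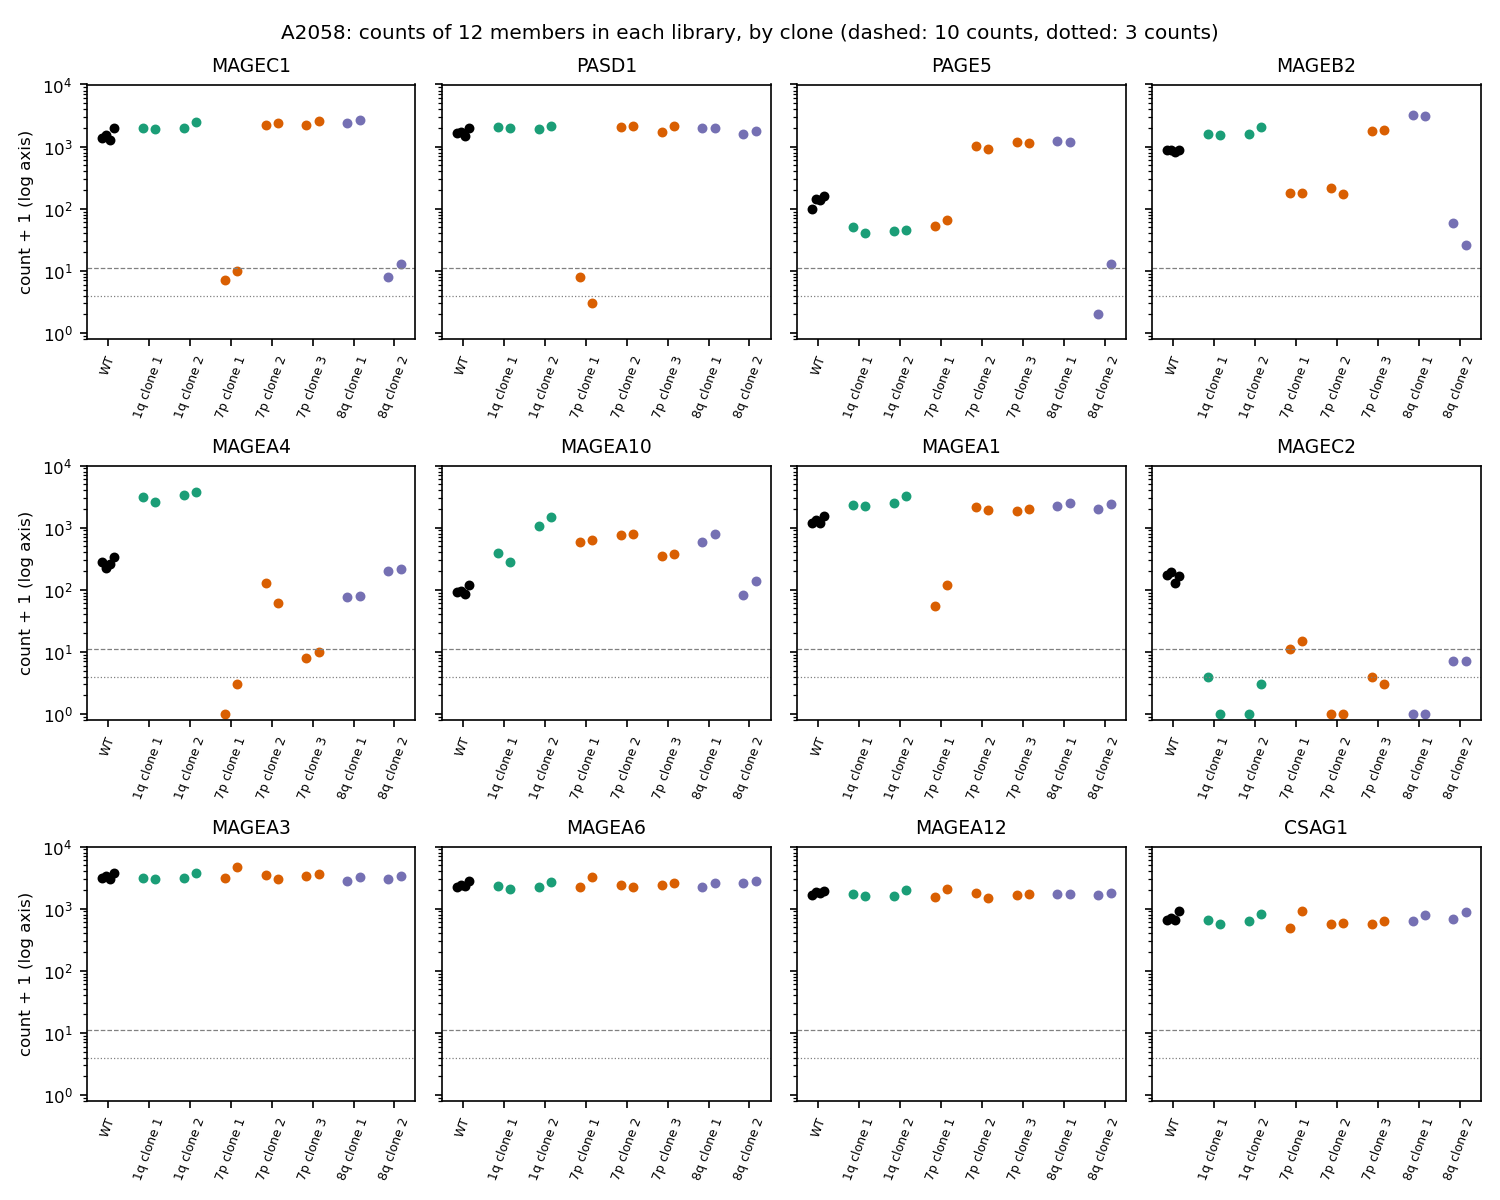
Counts of 12 members in each A2058 library, plotted as count + 1 on a log axis, with WT in black and the clones of 1q, 7p and 8q loss in green, orange and violet. MAGEC1 sits at 6 to 12 counts in 7p clone 1 and 8q clone 2 and at 1281 or more elsewhere, while MAGEA3, MAGEA6, MAGEA12 and CSAG1 in the bottom row stay level in every clone.

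The 3 clones of 7p loss also differed among themselves. Clone 1 had 2 members higher and 12 lower of 21 tested, beside 35.7% of all genes. Clone 2 had 5 higher and 3 lower of 21, beside 6.14%, and clone 3 had 6 higher and 2 lower of 21, beside 5.84%. CT45A1, MAGEA1, MAGEB2, MAGEC1 and PAGE5 were called higher in at least 1 of these clones and lower in at least 1 other. They are 5 of 21 members tested, and 2.55% of all genes tested in at least 1 of these clones were called in opposite directions.

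PASD1 had 1666, 1688, 1508 and 2009 counts in A2058 WT and 7 and 2 in 7p-loss clone 1, and between 1580 and 2165 in all other clones. WT stood 414-fold (95% exact interval 218 to 906) above clone 1, with a log2 change of -8.66 (SE 0.292, adjusted p = 3.58e-07 by edgeR). PASD1 passed the filter on low counts of that fit only through WT, so this p-value is a description. MAGEC1 had 6 and 9 counts in clone 1, 2204 and 2438 in clone 2 and 2243 and 2610 in clone 3, with WT 224-fold (136 to 401) above clone 1. MAGEA1 had 54 and 118 counts in clone 1 and 1845 to 2124 in clones 2 and 3, with WT 16.5-fold (14.1 to 19.3) above clone 1. Both MAGEC1 and MAGEA1 were thus below WT in clone 1 and above it in clones 2 and 3.

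MAGEA4 had 0 and 2 counts in clone 1, 125 and 59 in clone 2 and 7 and 9 in clone 3, all below its WT range of 226 to 335. Its log2 change was -8.07 in clone 1 (adjusted p = 5.86e-06), -1.57 in clone 2 (adjusted p = 0.0078) and -5.06 in clone 3 (adjusted p = 8.96e-06). In clones 1 and 3 MAGEA4 passed the filter on low counts only through WT, so those p-values are a description. In the fit of all 3 clones together it was not called (log2 -3.02, SE 0.979, adjusted p = 0.226 by edgeR). PAGE5 had 52 and 64 counts in clone 1, 1005 and 903 in clone 2 and 1191 and 1130 in clone 3. MAGEB2 had 179 and 175 counts in clone 1, 215 and 172 in clone 2 and 1755 and 1847 in clone 3. SSX2 had 0 and 0 counts and CT45A1 0 and 0 in clone 1, while clone 3 had 125 and 76 counts of SSX2 and 150 and 131 of CT45A1. SSX2 shares all of its 100-base windows with other SSX genes and CT45A1 73.7% of them with its copies, so these counts describe the families rather than the single genes. With copies summed, SSX2 and SSX2B had 0 to 1 counts in clone 1 and 506 to 629 in clone 3, beside 37 to 180 in WT.

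Of the 1q-loss clones, clone 1 had 9 members higher and 3 lower of 21 tested, beside 41.2% of all genes, and clone 2 had 10 higher and 4 lower of 22, beside 44.9%. Without its replicate 2, clone 1 had 7 members called and clone 2 had 9. SSX1 had 200 and 222 counts in clone 2 and 8 and 2 in clone 1, beside 0 to 9 in WT. It entered the fit through the clone where it is high and was picked by its values, so these counts are a description.

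Differences between the 7 loss clones were tested in 1 fit over their 14 libraries, with the clone as the group. Of 24 members tested, 17 differed between clones at an adjusted p under 0.05, beside 58.7% of 17103 genes. A gene such as SSX1, GAGE1 or GAGE2A could enter this fit through 1 clone where it is high and then had to vary, so nothing is read from that count. The 19 members on in every WT library, which took no part in the fit, were all tested. Their range, the highest clone minus the lowest on the log2 scale, had a median of 3.44, beside 0.81 over the 14115 genes tested that were on in every WT library. It passed 3 for 11 of these 19 members and for 8.06% of these genes, and its median was 0.83 over 465 such X-linked genes outside the list. Over all members tested the widest ranges were those of MAGEA4 at 10.27, PASD1 at 8.54, MAGEC1 at 8.13 and PAGE5 at 7.50. The narrowest were those of MAGEA12 at 0.09, MAGEA6 at 0.27, MAGEA3 at 0.29, CSAG1 at 0.43 and PRAME at 0.68, the 5 members under the median of all genes. With copies summed, the range was 7.87 for SSX2 with SSX2B, 7.83 for the CT45A genes, 4.22 for the GAGE genes and 1.88 for MAGEA2 with MAGEA2B, the last not passing the test (adjusted p = 0.171).

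**Figure D3:**
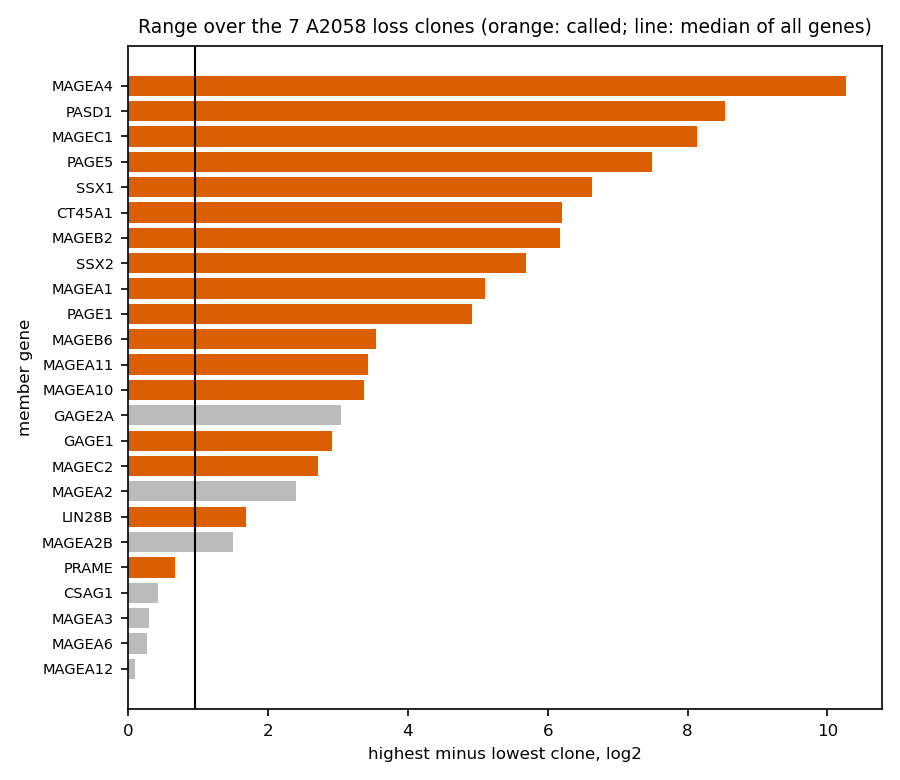
Range of each of 24 members over the 7 A2058 loss clones, as the highest clone minus the lowest on the log2 scale, with bars from 0, orange where the members differed between clones at an adjusted p under 0.05. The vertical line is the median of all genes tested, 0.96, and 5 bars end to the left of it.

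Position on the X chromosome gave both shared and separate behaviour. PASD1 (X, 151563622 to 151676739, plus strand) is followed 18.4 kb downstream by PRRG3, a transmembrane Gla protein gene that is no member. PRRG3 had 0 and 0 counts in 7p-loss clone 1, 71, 51, 59 and 36 in clones 2 and 3 and 38, 36, 57 and 34 in WT, so WT was at least 29.8-fold higher than clone 1, taking a floor of 3 counts over the 2 libraries. MAGEA4 (X, 151912509 to 151925170, plus strand) is followed 28 kb downstream by GABRE, a GABA-A receptor subunit gene. GABRE had 50, 59, 71 and 96 counts with 1q loss and 0 in all 4 WT libraries, at least 90.4-fold higher, and 0 to 3 counts in the clones of 7p and 8q loss. MAGEA4-AS1, on the other strand across the start of MAGEA4, had 62, 88, 70 and 52 counts with 1q loss and 0, 6, 1 and 1 in WT. Whether counting used the strand is not given in the sources used here, so reads in the overlap cannot be told apart.

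Between these genes others did not follow. From the start of PASD1 to the end of MAGEA1 (X, 153179285 to 153183880, plus strand) is a stretch of 1620 kb. In 7p-loss clone 1 PASD1, MAGEA4 and MAGEA1 were low, but MAGEA10, GABRA3, MAGEA3, MAGEA6, MAGEA12 and CSAG1 lie between them and were on. GABRA3, next to MAGEA10, had 178 to 392 counts in every A2058 library, and NSDHL, beyond MAGEA6, 320 to 592. Around PAGE5, FAM104B at 59 kb had 118 to 186 counts in every A2058 library while PAGE5 went from 1 to 1226. The median log2 change of X-linked genes outside the list lay between -0.04 and 0.09 in each of the 7 clones, over 508 to 538 genes.

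**Figure D4:**
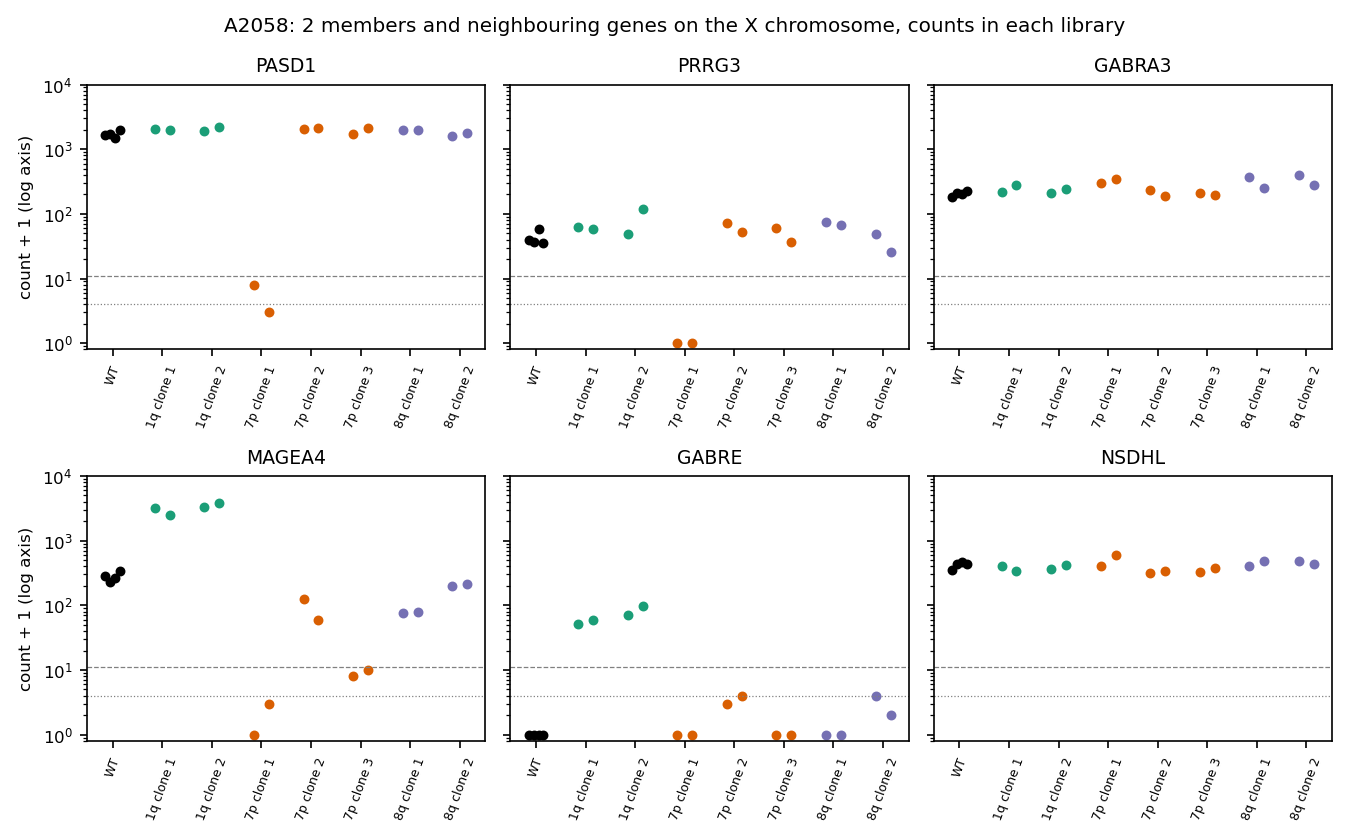
Counts in each A2058 library, plotted as count + 1 on a log axis, of the members PASD1 and MAGEA4 and of 4 genes near them on the X chromosome, in the colours of the plot of 12 members. PRRG3 is at 0 where PASD1 is at 2 and 7 counts, GABRE has 50 or more counts where MAGEA4 has 2537 or more, and GABRA3 and NSDHL stay at 178 or more counts throughout.

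In switches, a member was required to be on in every control and off in every library of at least 1 clone, or the reverse. With 7p loss 4 members of the 22 on in at least 1 library switched off, MAGEC2 in clones 2 and 3 and MAGEA4, SSX2 and CT45A1 in clone 1, beside 1.09% of all genes on somewhere in that comparison. With 1q loss MAGEC2 switched off, 1 of 23 members beside 2.84% of genes, and with 8q loss MAGEC2 in clone 1, 1 of 25 members beside 0.436%. When on took 20 or more counts and off 1 or fewer, MAGEC2 with 1q loss and MAGEA4 with 7p loss no longer counted as switched. No member switched on in A2058. Members on in every library numbered 19 in WT, 18 with 1q loss, 12 with 7p loss and 15 with 8q loss. The count with 7p loss spans 6 libraries and the others 4 each, and more libraries make the rule harder to meet. No share over all genes was set beside these counts, so they are a description.

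GPAT2 (chromosome 2, 96021946 to 96039451, minus strand) was the 1 member on in MCF10A WT, with 604 and 603 counts. In the 8 libraries of 1q-loss clones it had 2, 1, 0, 0, 0, 0, 2 and 0 counts. With hRASV12 it had 303 and 276 counts in WT and 0, 0, 0, 0, 0, 4, 0 and 3 in the clones. No clone library came near its WT, with either version of ReDACT. The log2 change was -9.44 without hRASV12 (SE 0.409, adjusted p = 6.62e-08) and -8.19 with it (SE 0.695, adjusted p = 0.00228). Relative to scaled library totals WT stood 821-fold (95% exact interval 351 to 2534) above 1q loss, and 335-fold (162 to 838) with hRASV12. GPAT2 was the 1 member tested in each comparison, where 2.04% of all genes were called without hRASV12 and 0.214% with it. It passed the filter on low counts only through WT, where it is high, so its call is not read against these shares and its p-values are a description. By the switch rule it was off in all 4 clones without hRASV12 and in 3 of 4 with it, 1 of 2 members on somewhere in each set, beside 0.885% and 2.14% of genes. With hRASV12 the call was lost when the libraries of each clone were summed (adjusted p = 0.158) and without hRas WT replicate 1 (adjusted p = 0.0562). GPAT2 was lower in hRASV12 WT than in MCF10A WT (log2 -0.82, SE 0.154, adjusted p = 0.019, beside 1.62% of all genes), which was lost without either WT replicate (adjusted p of 0.324 and 0.366) or without hRas WT replicate 1 (0.0721).

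In HCT116 GPAT2 went up. It had 336 and 162 counts in WT and 2656, 1803, 1458 and 1602 with 8q loss, with no overlap, or 9.38 ± 3.57 CPM (SD, n = 2) against 69.5 ± 24.3 CPM (SD, n = 4). The log2 change was 2.88 (SE 0.417, adjusted p = 0.0307), the 1 call among 11 members tested beside 0.14% of all genes. GPAT2 in HCT116 was singled out from earlier results of these data, so its p-values are a description and its call is not read against this share. The call was lost without either WT replicate (adjusted p of 0.141 and 0.231) or without replicate 2 of clone 1 (0.191). GPAT2 shares 28.4% of its 100-base windows with other genes, most with the pseudogene GPAT2P1, which had 9 and 60 counts in WT and 115 to 460 with 8q loss. With the copies summed the log2 change was again 2.88 (adjusted p = 0.0318). In A2058, AGS and A2780 GPAT2 had at most 9 counts in any library.

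**Figure D5:**
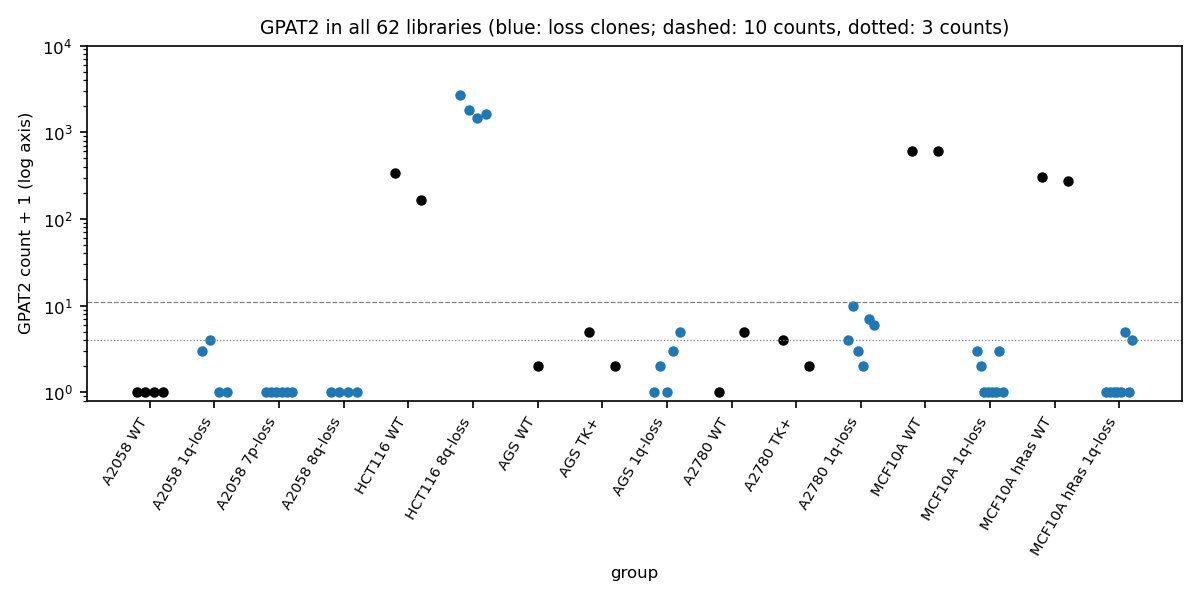
GPAT2 counts in all 62 libraries, plotted as count + 1 on a log axis, by group, with loss clones in blue and WT and TK+ libraries in black. MCF10A WT and MCF10A hRas WT lie at 276 to 604 counts and their 1q-loss clones at 0 to 4, whereas HCT116 lies at 162 and 336 counts in WT and at 1458 to 2656 with 8q loss.

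The other HCT116 members did not pass the test. MAGEA3 was at 1935 and 1958 counts in WT and at 3505 to 4393 with 8q loss (log2 0.92, SE 0.253, adjusted p = 0.443). MAGEB2 had 6594 and 5301 counts in WT and 4676 to 6792 with 8q loss, and MAGEA12 3075 and 2510 against 2777 to 3797. MAGEA9 had 617 and 489 counts in WT and 593 to 799 with 8q loss, and CSAG1 740 and 783 against 654 to 913. None of 12 members on somewhere switched, beside 1.69% of genes. MAGEA10, on in all A2058 libraries, had 0 counts in all 6 HCT116 libraries, where a sum of 0 allows at most 3 counts over the 6 libraries together.

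In AGS, PASD1 had 1298 counts in WT, 1225 and 951 in the TK+ clones and 1639, 1865, 1296, 1173 and 1194 in 1q-loss clones 1, 4, 6, 7 and 11, with the groups overlapping (log2 0.38, SE 0.158, adjusted p = 0.170). It was the 1 member tested, beside 7.55% of all genes called. Of 4 members on in at least 1 AGS library, 3 were called as switched on, beside 3.64% of genes, each in 1 clone and at few counts: MAGEA11 with 13 in clone 4, MAGEB6 with 17 in clone 6 and PRAME with 13 in clone 1. None of the 3 counted as switched when on took 20 or more counts. Their controls had 0 counts of MAGEA11 and MAGEB6 and 0 to 2 of PRAME. MAGEA10 had at most 6 counts in AGS.

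In A2780, no member was called with 1q loss of 3 tested, beside 11.8% of all genes, with 1 member at an unadjusted p under 0.05. LIN28B had 6111 and 5659 counts in WT, 5004 and 4855 in TK+ cells and 6521, 6073, 5821, 7154, 7535 and 8089 in the 1q-loss clones (log2 0.30, SE 0.0971, adjusted p = 0.0701 by edgeR and 0.0384 by DESeq2). With the WT libraries alone as controls, a fit added after the data had been seen, the log2 change was 0.15 (adjusted p = 0.452 by edgeR). PRAME had 1711 and 1430 counts in WT, 1697 and 1561 in TK+ cells and 1444 to 1905 with 1q loss. SYCP3 had 14 and 11 counts in WT and 7 to 30 elsewhere. No member of 3 on somewhere switched with 1q loss, beside 0.765% of genes. LIN28B was lower in TK+ than in WT cells (log2 -0.32, SE 0.0782, adjusted p = 0.0181), 1 of 3 members tested beside 11.2% of all genes, a call lost without either WT replicate (0.292 and 0.319).

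Other genes of these pathways were followed in 4 lists: 63 further cancer-testis genes, 46 further germline genes, 40 genes of DNA methylation and repressive chromatin and 15 ubiquitin-pathway partners and relatives of the MAGE proteins. With 1q loss in A2058, 9 further cancer-testis genes of 28 tested were higher and 4 lower, a share no larger than the 49.6% of all genes called there, with a median log2 change of 0.12 against -0.00 over all genes. The X-linked SPANXD, VCX2 and CT55 were among the higher. SPANXD had 33 to 98 counts with 1q loss and 0 in every WT library, VCX2 30 to 152 against 0 to 2 and CT55 13 to 33 against 3 to 7. Such genes passed the filter on low counts only through the 1q-loss libraries, so nothing is read from their calls. Of 13 further germline genes tested 2 were higher and 5 lower, again close to the share of all genes called, among them TDRKH (log2 -1.85, adjusted p = 8.11e-05), which lies on chromosome 1, and PIWIL4 (-1.65, 0.00133), a PIWI protein. With 8q loss 2 of 23 further cancer-testis genes were lower, beside 2.03% of all genes called. They were SAGE1 (log2 -3.41, adjusted p = 0.0054) and ATAD2 (-0.46, 0.0132), which lies on chromosome 8. With 7p loss edgeR called 0 of 24, with 1 at an unadjusted p under 0.05, and 0 of 14 further germline genes, with 0 at such a p. With 8q loss it called 0 of 14 further germline genes, with 1 at such a p.

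The list of DNA methylation and repressive chromatin holds genes known to keep germline promoters silent, but also TET1, TET2 and TET3, which remove DNA methylation. Among the genes lower with 1q loss in A2058 were TET1 (log2 -0.96, adjusted p = 0.00153 by edgeR) and TET3 (-0.57, 0.000155). In A2780 TET1 (-0.52, 0.013), TET2 (-0.40, 0.0188) and TET3 (-0.44, 0.0228) were lower. The counts of this list thus do not describe silencing genes alone. With 1q loss in A2058, 5 of 38 were higher and 11 lower, a smaller share than the 49.6% of all genes called, including DNMT3A (log2 -1.05, adjusted p = 0.000217), a de novo DNA methyltransferase, and SETDB1 (-0.57, 7.27e-05), a histone methyltransferase on chromosome 1. DNMT1, the maintenance methyltransferase, did not pass there (log2 -0.06, adjusted p = 0.429), nor did DNMT3B (-0.18, 0.398), and UHRF1, which recruits DNMT1, was higher (0.36, 0.00377). With 7p loss 1 of 38 was called, beside 0.908% of all genes: CBX3 (log2 -0.40, adjusted p = 0.0408), which lies on chromosome 7. With 8q loss edgeR called 0 of 38, with 3 at an unadjusted p under 0.05. With 1q loss in A2780, 12 of 38 were lower and 0 higher, beside 11.8% of all genes called in either direction, with a median log2 change of -0.11 against 0.01 over all genes, among them SETDB1 (-0.50, 0.00111), UHRF1 (-0.42, 0.00719), DNMT1 (-0.31, 0.00828) and DNMT3B (-0.48, 0.0147). SETDB1 was also lower with 1q loss in AGS (log2 -0.74, adjusted p = 0.013) and MCF10A (-0.66, 0.00359), and did not pass in MCF10A with hRASV12 (-0.44, 0.191). SETDB1, TDRKH, ATAD2 and CBX3 lie on the chromosome that lost an arm in these loss comparisons. The part of copy number in their falls was not tested.

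Of the ubiquitin-pathway partners and relatives of the MAGE proteins, 4 of 12 tested were higher and 0 lower with 1q loss in A2058, a smaller share than the 49.6% of all genes called. Among them were UBE2D1, a ubiquitin-conjugating enzyme (log2 0.68, adjusted p = 0.00128), and MAGED2 (0.46, 0.00144). By edgeR 0 of 12 were called with 7p loss and 0 of 12 with 8q loss, with 1 and 2 at an unadjusted p under 0.05. In HCT116 edgeR called 0 genes of the 4 lists, with 6 at such a p. In MCF10A with 1q loss SETDB1 was the 1 gene called of the 4 lists, beside 2.04% of all genes. With hRASV12 as well edgeR called 0, with 13 at such a p. In AGS with 1q loss, where 7.55% of all genes were called, SPAG1 was higher (log2 0.74, adjusted p = 0.0263), and DCAF12 (-0.56, 0.0278), SMCHD1 (-0.58, 0.0194) and TRIM69 (-0.73, 0.0231) were lower. In A2780 with 1q loss SYCP2, a meiotic axis gene, was lower (log2 -1.50, adjusted p = 0.000479) and RAD21L1, a meiotic cohesin gene, higher (1.18, 0.0237).

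In A2780 TK+ cells 3 of 14 further germline genes were higher than in WT, beside 11.2% of all genes called, led by TEX11, an X-linked meiosis gene, with 158 and 216 counts in TK+ cells and 13 to 17 in WT (log2 3.56, adjusted p = 1.95e-06), beside 2 to 40 in the 1q-loss clones. The other calls of the 4 lists there were TDRD7 (log2 2.17, adjusted p = 4.25e-05), TDRKH (0.69, 0.0015), SPAG1 (0.74, 0.00443), RYBP (0.41, 0.00518), NDN (1.11, 4.51e-05) and TRIM69 (0.59, 0.0147), all higher, and ANKRD45 (-1.25, 0.000475), which was lower. Between hRASV12 and WT MCF10A cells, where 1.62% of all genes were called, LY6K (log2 0.52, adjusted p = 0.0217) and MORC2 (0.41, 0.0427) were higher and TDRKH (-0.65, 0.0473) and MAGED1 (-0.35, 0.0492) lower.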

How the data were processed

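The authors deposited 1 table of raw read counts per gene and library, unnormalised, with Ensembl gene IDs, symbols and coordinates. Poly-T selected RNA was copied with random hexamers, per the labels' protocols. The submitters' processing notes list HISAT2 2.0.5, featureCounts 1.5.0-p3 and hg38. Handling of strand and of reads with several matches is not given in the sources used here. Coordinates are GRCh38 except in the A2780 tables, which hold GRCh37 coordinates although the notes list hg38, so none are printed from these. The tables had 0 entries that name no gene.

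Libraries were grouped by line, genotype and hRASV12 from the labels. Nothing says that libraries of 1 group came from separate cultures, so p-values measure only the spread between these libraries, and libraries of 1 clone are not independent. Each of 10 comparisons was fitted on its own libraries (AGS and A2780 1q loss against WT with TK+) with edgeR 4.0.16 in R 4.3.3: filterByExpr (minimum count 10, minimum total 15), TMM scaling, quasi-likelihood F-test, two-sided, Benjamini-Hochberg over all genes tested. The SE was obtained from the log2 change and its F statistic (change over root F). CPM and folds of members use TMM-scaled library totals, and marker CPM unscaled totals. Folds of summed counts carry exact binomial 95% intervals, and folds against 0 use a floor of 3 counts over the group. These cover counting error only.

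The members and lists were chosen with earlier results of these data known. Named genes were the members called (the 8 of smallest adjusted p where more), MAGEA10 and GPAT2 in every line, switched members, the 5 highest per line in WT, up to 4 called genes per list, a few fixed silencing genes, and neighbours within 100 kb. PASD1 and MAGEC1 in A2058 clones, SSX1 in A2058 1q-loss clone 2 and the narrow-range members were named after their values were seen, as were the single-clone fits, the test between clones and its summary over genes on in every WT library. HORMAD1, one of the fixed genes, was tested in no comparison. Shared sequence is the share of 100-base windows of a gene's exons found in another gene. On simulated data for A2058 7p loss (15290 genes), 98% of 2-fold and 100% of 4-fold changes were recovered, with 4.35% false calls. Alternatives were DESeq2 1.42.0, RLE scaling, other filters, summed copies, summed clones, a replicate block, WT subsets and leaving out libraries or clones. Tables were handled in Python 3.11.15 (pandas 2.3.3, numpy 2.4.6), exact intervals came from scipy 1.17.1 and plots from matplotlib 3.10.9.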

Additional observations from a re-analysis of the deposited data

Results flagged for a closer look

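Among 55 sets of 4 to 10 libraries, 4 held 1 library that stood apart from the others, where chance alone flags about 1 set in 20. MAGEA11 was at 2.39 CPM in A2058 WT replicate 1, below the 2.93 to 2.95 CPM of the other WT libraries. SSX2 was at 3.3 CPM (76 counts) in A2058 WT replicate 2, above the 1.09 to 1.32 CPM of the others. SYCP3 was at 1.26 CPM (30 counts) in replicate 2 of A2780 1q-loss clone 5, above 0.31 to 0.656 CPM in the other 1q-loss libraries. MAGEA11 was at 0.735 CPM (13 counts) in AGS 1q-loss clone 4, above 0 to 0.121 CPM in the other clones.

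Of 13 pairs of comparisons with the same arm and a tested member, 1 had opposite directions with every loss library on 1 side of the mean of its controls. Opposite signs without this were not counted, such as those of PRAME with 1q loss (-0.246 in A2058 and 0.0386 in A2780). The pair was LIN28B, with a log2 change of -0.471 with 1q loss in A2058 and of 0.299 with 1q loss in A2780. Neither change was called (adjusted p = 0.0605 and 0.0701 by edgeR), and the difference between the lines was not tested. The A2780 controls pool WT (278 CPM) with TK+ cells (222 CPM), and against WT alone the A2780 value was 0.15.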

How the results depend on the processing

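Under the other settings and subsets tried, 810 values of named members kept their side of the threshold, 41 lost a call, 6 gained one and 0 called changes reversed. With WT alone as controls for 1q loss in A2780, added after the data were seen, the 3 members tested were again not called. With 7p loss in A2058 the 2 calls became 1 with clones summed, 0 with WT replicates 1 and 2 only and 1 with WT replicates 3 and 4 only. With 8q loss the 4 calls became 2 and 0 with these WT pairs, and single-clone calls with WT replicates 3 and 4 only were 5 of 8 for 8q clone 1, 4 of 9 for 8q clone 2 and 9 of 14 for 1q clone 2. DESeq2 called 1 member (LIN28B) with 1q loss in A2780, summing clones left 0 with 1q loss in hRASV12 cells, and no filter gave 2 calls between hRASV12 and WT cells. AGS WT had 2 members on at 5 counts. Requiring 20 counts for on and 1 for off left 0 switched members with 1q loss in A2058 and 0 in AGS. The cause was not tested.

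Leaving out 1 library or clone gave 10 to 14 calls with 1q loss in A2058, 2 to 6 with 7p loss and 3 to 9 with 8q loss. It gave 0 to 1 in HCT116, 0 to 0 in AGS and with 1q loss in A2780, 0 to 1 in A2780 TK+, 1 to 1 with 1q loss in MCF10A, and 0 to 1 in both other MCF10A comparisons. For single clones it gave 7 to 13 (1q clone 1), 9 to 14 (1q clone 2), 12 to 14 (7p clone 1), 7 to 9 (7p clone 2), 8 to 9 (7p clone 3), 7 to 8 (8q clone 1) and 6 to 9 (8q clone 2). The lowest values for 1q clones 1 and 2 came without replicate 2 of each.

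Libraries with the same replicate number did not deviate together throughout (correlations from -0.18 to 0.32), so the numbers are taken as names only. With the replicate number as a block, calls were 11 with 1q loss, 0 with 7p loss and 1 with 8q loss in A2058, 0 with 1q loss in A2780 and 1 in each of HCT116, MCF10A 1q loss, hRASV12 1q loss, A2780 TK+ and hRASV12. Under the block the calls of MAGEA10 (adjusted p = 0.179) and MAGEC2 (0.205) with 7p loss, of MAGEA1 (0.0509), CT45A1 (0.0842) and PAGE1 (0.167) with 8q loss and of PAGE1 (0.0543) with 1q loss were lost. For single clones the calls under the block were 9, 8, 15, 14, 13, 8 and 8 (8q clones 1 and 2, 1q clones 1 and 2, 7p clones 1 to 3). In AGS no paired analysis was possible because its libraries carry no replicate numbers.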
